A study of Sus scrofa with 16 samples.

Results

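The comparison concerned pig neurons at day 28 of a ventral midbrain differentiation, made from a parthenogenetic embryonic stem cell line (PA) and from an in vitro fertilized one (IVF). It rested on 4 of the 16 bulk RNA libraries of the study, 2 PA libraries and 2 IVF libraries, chosen by the day and the line in their labels. Of the 28232 genes in the deposited count table, 18528 had enough reads to be tested. The PA cells came from the line PA_3_pESC_FIW, derived from a blastocyst of an activated egg with no sperm, and the IVF cells from the line IVF_1_pESC_FIW, derived from a fertilized blastocyst. Each origin is represented by 1 line, so a difference between origins and a difference between lines cannot be told apart. Nothing in the labels tells whether the 2 replicates of a group came from separate cultures, and p-values therefore measure the spread between these libraries only.

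Both groups went through the same protocol. Neural induction used SB431542 and Noggin, inhibitors of TGF-beta and BMP signalling, with SHH-C24II, a sonic hedgehog protein, and CHIR99021, which activates WNT signalling. FGF8 followed, then BDNF and ascorbic acid, and from day 16 the replated cells received BDNF, GDNF, ascorbic acid, db-cAMP and DAPT, a gamma-secretase inhibitor that blocks Notch signalling. Poly(A) RNA was sequenced from stranded libraries, and the study set the 2 lines side by side to ask how well each yields midbrain dopaminergic neurons.

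An embryo made by parthenogenetic activation inherits maternal chromosomes only. Imprinted genes are those that are read from a single parental copy because DNA methylation was set in the egg or in the sperm, so a gene read only from the paternal copy has no active copy in such cells, while a gene read only from the maternal copy can have a pair of active copies. Many imprinted genes are strongly transcribed in brain, and several act on growth or on hypothalamic neurons.

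Library totals were 48323818 and 44020841 counts in PA and 47938859 and 46286814 counts in IVF. Replicates correlated at Pearson r = 0.9979 within PA and 0.997 within IVF on log2(CPM + 1) across 18528 genes, and pairs of a PA and an IVF library at 0.9598 to 0.9693 (genes are not independent replicates). CPM is a gene's count scaled to the size of its library after TMM scaling, which corrects for differences in RNA composition, so that 3 counts were worth 0.0598 and 0.0656 CPM in PA and 0.0594 and 0.0612 CPM in IVF. A gene was called when edgeR's quasi-likelihood test gave a Benjamini-Hochberg adjusted p under 0.05 and the fold change was at least 2. Log2 fold changes are PA over IVF and carry a standard error (SE) from the fit, which pooled the spread of all 16 libraries.

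By this rule 1914 genes were higher in PA, 10.3% of those tested, and 1251 were lower, 6.75%. The median log2 fold change over all tested genes was 0. Of the higher genes, 1266 differed by 2- to 4-fold, 437 by 4- to 16-fold and 211 by 16-fold or more, with a median of 3.11-fold. Of the lower genes, 908, 212 and 131 fell in the same ranges, with a median of 2.72-fold. Among protein-coding genes 1642 were higher and 1093 lower of 15881, and among long noncoding RNAs 239 were higher and 144 lower of 2275. Genes under 1 CPM in both groups made up 296 of the higher and 168 of the lower calls, and 408 and 249 had only a locus number or no symbol. The libraries of the 2 groups did not overlap for 13856 genes, 74.8% of those tested, so a lack of overlap alone says little here. It held for 1912 of the 1914 higher and 1250 of the 1251 lower calls, so it adds nothing to a call.

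**Figure D1:**
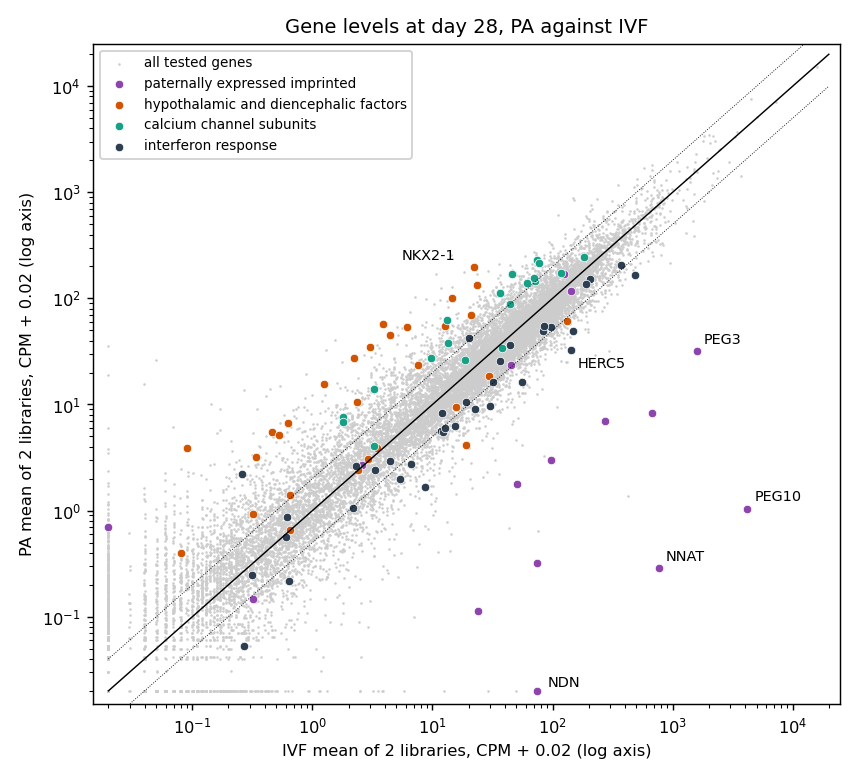
Mean CPM of the 2 PA libraries (vertical log axis) against that of the 2 IVF libraries (horizontal log axis) for each tested gene at day 28, with 0.02 added to both, 4 gene lists in colour, a solid line of equality and dotted lines at 2-fold. Paternally expressed imprinted genes such as NDN, NNAT and PEG10 lay far below the line, and hypothalamic factors such as NKX2-1 lay above it.

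The study calls these cells midbrain dopaminergic neurons, on the evidence of PCR, staining for TH, EN1, DAT and NURR1, electrical recordings and dopamine release. The labels give only VM with the line, day and replicate. The 6 markers used for that type summed to 164 and 160 CPM in PA and 138 and 151 CPM in IVF, with only TH called. Some of these 6 had little RNA in both groups: SLC6A3, the gene of the dopamine transporter DAT, had 0.917 and 1.44 CPM in PA, against 1.56 and 1.39 in IVF. The transcription factor gene PITX3 had 0.259 and 0.219 CPM in PA, against 0.456 and 0.489 in IVF. CALB1, a calcium-binding protein of a subset of these neurons and not among the 6, had 0.0997 and 0.175 CPM in PA, against 0.416 and 0.428 in IVF. The 5 tested markers of neurons at large summed to 4002 and 4051 CPM in PA and 1847 and 2483 CPM in IVF. Only STMN2 of these was called, and it lost the call without IVF replicate 1 (log2 fold change 0.91). MAP2 and STMN2 made up most of the sum. Stem cell, microglial, endothelial and choroid plexus markers were low in all 4 libraries, at no more than 10.4 CPM per set. In bulk RNA, fewer cells of a type and less RNA per cell cannot be told apart.

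Paternally expressed imprinted genes had the lowest median of all lists examined. Of 16 tested members, 10 were lower in PA and 1, ZIM2, was higher, with a median log2 fold change of -5.16 against 0 for all tested genes. NDN (gene 100144475, chr1:142412688-142413665), which encodes the growth suppressor necdin, had no count in either PA library, against 77.8 and 70.1 CPM in IVF libraries. With a floor of 3 counts over the PA group it was at least 2365-fold lower. NNAT (449004, chr17:40625990-40629523), a small membrane protein of the endoplasmic reticulum in developing brain, had 0.160 and 0.372 CPM in PA, against 714 and 812 in IVF, a log2 fold change of -11.50 ± 0.39 (adjusted p = 2.24e-10). PEG10 (654416, chr9:74474121-74486983), a domesticated retrotransposon Gag protein, had 0.279 and 1.77 CPM in PA, against 3908 and 4411 in IVF, 4144-fold lower by the fit. Its neighbour SGCE (100240725, chr9:74402714-74473904), which encodes epsilon-sarcoglycan, shared the pattern with 0.160 and 0.437 CPM in PA, against 72.4 and 77.2 in IVF (log2 fold change -7.98 ± 0.32). In all 4 of these genes the PA libraries were near 0, and the IVF libraries were high and close to each other.

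The other lower members were NAP1L5, which was also near 0 in PA, and 5 genes of somewhat higher PA level. NAP1L5 had 0.0997 and 0.0874 CPM in PA, against 23.9 and 23.9 in IVF (log2 fold change -7.95 ± 0.28). PEG3, a zinc finger protein of growth and maternal behaviour in mouse, had 33.4 and 30.3 CPM in PA, against 1630 and 1548 in IVF (log2 fold change -5.64 ± 0.24). DIRAS3, a small GTPase that restrains growth, had 7.93 and 8.66 CPM in PA, against 687 and 663 in IVF (log2 fold change -6.35 ± 0.29). MEST, of the alpha/beta hydrolase family, had 6.96 and 6.91 CPM in PA, against 247 and 298 in IVF, 39.3-fold lower. PLAGL1, a zinc finger regulator of the cell cycle, had 3.15 and 2.82 CPM in PA, against 96.8 and 97.5 in IVF, 32.5-fold lower. DLK1, a membrane ligand related to the Notch ligands, had 1.40 and 2.16 CPM in PA, against 50.5 and 50.8 in IVF (log2 fold change -4.83 ± 0.42). No PA library reached an IVF library in any of the 10 lower genes, which holds for nearly every called gene.

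The list was taken from genes known as imprinted in human or mouse, and 5 of its tested members were not called. MAGEL2 (100154924, chr1:142450414-142454633), which regulates protein sorting in hypothalamic neurons and lies beside NDN, had 116 and 120.4 CPM in PA, against 137 and 147 in IVF, a log2 fold change of -0.26 ± 0.14. MKRN3 (100155343, chr1:142492089-142500968), the next gene of the same cluster and an inhibitor of puberty onset in human, had 25.5 and 21.1 CPM in PA, against 41.5 and 48.1 in IVF. Its log2 fold change of -0.94 ± 0.17 missed the 2-fold minimum and passed it without PA replicate 1 (-1.09) or without IVF replicate 1 (-1.05). NDN, MAGEL2 and MKRN3 thus stood at no reads, at near-equal levels and at intermediate values in PA within 1 cluster of chromosome 1. IGF2, a fetal growth factor, was low in both groups, with 2.95 and 2.38 CPM in PA, against 2.69 and 2.40 in IVF. RTL1 and INPP5F had log2 fold changes of -1.24 ± 0.83 and 0.44 ± 0.17. ZIM2, beside PEG3 on chromosome 6, ran the other way with 0.937 and 0.415 CPM in PA, against 0 and 0 in IVF, at least 22.8-fold higher in PA.

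Maternally expressed imprinted genes as a list hardly moved. Of 18 tested members 3 were higher in PA and none was lower (1 lower without PA replicate 1), with a median log2 fold change of 0.20. MEG3 (100144590, chr7:121656253-121660495), a long noncoding RNA from the DLK1 locus of chromosome 7, had 858 and 907 CPM in PA, against 134 and 160 in IVF, a log2 fold change of 2.59 ± 0.16 (adjusted p = 6.72e-08). MEG3 was high and DLK1 low in PA, and neither overlapped with IVF. CALCR, the calcitonin receptor gene on the same chromosome as PEG10 and SGCE, had 2.95 and 2.75 CPM in PA, against 0.258 and 0.591 in IVF (log2 fold change 2.75 ± 0.60). PHLDA2, a placental growth suppressor, had 1.42 and 1.27 CPM in PA, against 0.673 and 0.469 in IVF and lost its call without any 1 of the 4 libraries. CDKN1C, a cell cycle inhibitor, was not called and had 44.0 and 41.8 CPM in PA, against 41.8 and 46.2 in IVF. IGF2R, which clears the growth factor IGF2, had 165 and 151 CPM in PA, against 231 and 192 in IVF, and GRB10, an adaptor that dampens insulin signalling, had a log2 fold change of -0.22 ± 0.10, and neither was called. UBE3A, a ubiquitin ligase read from the maternal copy in mouse and human neurons, had 125 and 126 CPM in PA, against 82.2 and 93.0 in IVF, a log2 fold change of 0.52 ± 0.15 that passed the adjusted p (0.0161) and not the 2-fold minimum.

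**Figure D2:**
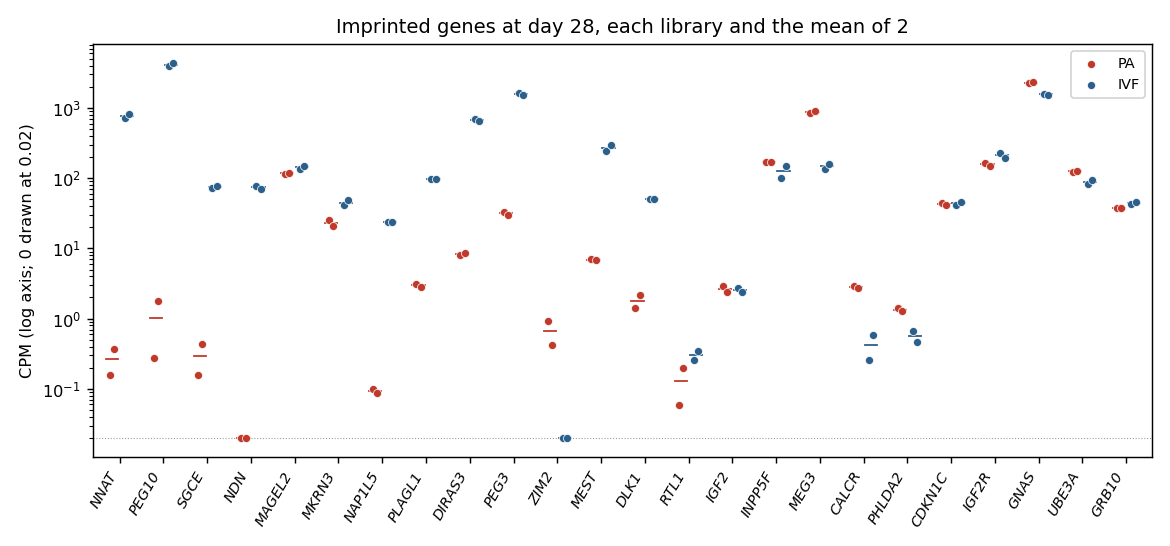
CPM of imprinted genes at day 28 on a log axis, with a point for each library, a bar for the mean of 2, PA left of IVF within each gene and 0 drawn at 0.02. The points of NNAT, PEG10, SGCE, NDN and NAP1L5 lie orders of magnitude lower in PA, those of MAGEL2, IGF2 and CDKN1C lie level, and those of MEG3 lie higher in PA.

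Outside the imprinted lists, the largest differences with at least 5 CPM in the higher group were mostly of genes at or near 0 in the other line. TRIM4 (100525393, chr3:7815188-7837587), a ubiquitin ligase of antiviral signalling, had no count in either PA library, against 49.8 and 48.7 CPM in IVF libraries, at least 1573-fold lower. It also had 0 CPM in the PA libraries of days 0, 16 and 45. TNFSF11 (100037976), the bone-remodelling ligand RANKL, had 19.8 and 17.8 CPM in PA libraries and no count in IVF libraries, at least 626-fold higher. ZFR2, a zinc finger RNA-binding protein, had 26.1 and 26.6 CPM in PA, against 0.0594 and 0 in IVF, a ratio of 875 with a 95% counting interval of 299 to 4246. AJAP1, a membrane protein of cell junctions, had 14.7 and 16.8 CPM in PA, against 0.0396 and 0 in IVF, a ratio of 780 with an interval of 216 to 6447. TNFSF11, ZFR2 and AJAP1 were thus at or near 0 in IVF. Others on the higher side had some reads in IVF. SEZ6L, a membrane protein of synapses, had 265 and 252 CPM in PA, against 14.5 and 14.0 in IVF (log2 fold change 4.18 ± 0.22). NRGN, which binds calmodulin in neurons, had 14.8 and 14.9 CPM in PA, against 0.574 and 0.469 in IVF. HTR2C, a serotonin receptor, had 21.0 and 17.6 CPM in PA, against 0.535 and 1.20 in IVF. On the lower side stood transcription factor genes. SHOX2, a homeobox factor of limb, heart and nerve, had 0.259 and 0.525 CPM in PA, against 11.9 and 15.9 in IVF. TBX20, of heart and of cranial motor neurons, had 0.518 and 0.656 CPM in PA, against 9.05 and 19.5 in IVF. The PA libraries of both factors were all under 1 CPM.

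Hypothalamic and diencephalic transcription factors were mostly higher in PA. Of 29 tested members 18 were higher in PA and 2 lower, with a median log2 fold change of 2.51, and leaving out any 1 library gave 17 to 19 higher. NKX2-1 (100154384), which specifies the ventral hypothalamus and the ventral telencephalon, had 188 and 206 CPM in PA, against 18.3 and 26.2 in IVF, a log2 fold change of 3.15 ± 0.16 (adjusted p = 3.84e-08). OTP, needed for neuroendocrine neurons of the hypothalamus, had 52.8 and 62.3 CPM in PA, against 3.70 and 4.00 in IVF (log2 fold change 3.90 ± 0.24). FEZF2, a forebrain patterning factor, had 28.4 and 26.0 CPM in PA, against 1.86 and 2.53 in IVF (log2 fold change 3.63 ± 0.22). DBX1, a factor of ventral progenitors, had 47.8 and 43.4 CPM in PA, against 3.03 and 5.85 in IVF. Each PA value exceeded every IVF value of these 4 genes, and the IVF replicates of DBX1 lay far apart.

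The rest of the list followed with factors of separate hypothalamic territories. LHX1, a LIM homeodomain factor, had 128 and 142 CPM in PA, against 21.1 and 26.3 in IVF (log2 fold change 2.51 ± 0.17). Its relative LHX5, of the mammillary region, had 54.3 and 56.3 CPM in PA, against 11.3 and 14.3 in IVF. RAX, a factor of the eye field and of hypothalamic progenitors, had 4.25 and 3.54 CPM in PA, against 0.0792 and 0.0612 in IVF, close to 0 in IVF. SIX3, of the anterior neural plate, had 12.1 and 8.98 CPM in PA, against 2.24 and 2.43 in IVF. BSX, HMX2 and HMX3, factors of arcuate neurons, had log2 fold changes of 3.63 ± 0.45, 3.47 ± 0.41 and 3.64 ± 0.46. NR5A1, of the ventromedial nucleus, had 5.72 and 4.53 CPM in PA, against 0.356 and 0.652 in IVF. The 2 lower members were SIM2 (log2 fold change -1.12 ± 0.14) and IRX1 (log2 fold change -2.18 ± 0.29). SIM1, a factor of paraventricular hypothalamic neurons that stood in the floor plate list, had 83.8 and 92.3 CPM in PA, against 18.2 and 24.8 in IVF and was the 1 higher member there.

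Factors of the floor plate and ventral midbrain leaned the other way. Of 15 tested members 5 were lower in PA and 1 higher, with a median log2 fold change of -0.93. WNT5A, a secreted ligand of the midbrain floor, had 113 and 106 CPM in PA, against 254 and 265 in IVF (log2 fold change -1.24 ± 0.17). MSX1, a homeobox factor, had 2.77 and 2.23 CPM in PA, against 11.7 and 10.7 in IVF (log2 fold change -2.16 ± 0.35). NKX6-1, of ventral progenitors, had 6.26 and 6.23 CPM in PA, against 13.5 and 17.1 in IVF. SHH itself, the ligand of the floor plate, had 52.0 and 46.5 CPM in PA, against 119.8 and 94.5 in IVF, a log2 fold change of -1.12 ± 0.16 that shrank to -0.94 and lost the call without IVF replicate 1. Among factors listed with dopaminergic identity, FOXA2 (100513828), the floor plate factor that directs dopaminergic fate, had 28.8 and 26.7 CPM in PA, against 76.7 and 73.0 in IVF, a log2 fold change of -1.43 ± 0.30 (adjusted p = 0.00189). Its relative FOXA1 had 186 and 172 CPM in PA, against 380.4 and 351 in IVF (log2 fold change -1.03 ± 0.12), a call that was lost without PA replicate 2 or IVF replicate 1 (-0.97 each) and with DESeq2 or its size factors (-0.98). OTX2, which sets midbrain and forebrain identity, had 59.0 and 53.2 CPM in PA, against 124 and 124 in IVF. In all these genes both PA libraries lay below both IVF libraries.

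The hedgehog pathway split by role. PTCH1, receptor and target of hedgehog, had 85.5 and 80.3 CPM in PA, against 33.6 and 36.2 in IVF (log2 fold change 1.25 ± 0.14). GLI1, a target used as a reporter of the pathway, had 3.49 and 3.43 CPM in PA, against 0.634 and 0.815 in IVF (log2 fold change 2.25 ± 0.39). These 2 targets were higher in PA. BOC, a coreceptor, was lower with 9.27 and 8.92 CPM in PA, against 26.8 and 25.1 in IVF, and HHIP, a decoy receptor and target, was lower with a log2 fold change of -1.75 ± 0.20. Of the 10 members of this list 2 were higher, 3 lower and 5 not called.

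The dopaminergic genes themselves showed no common direction. TH (110259705, chr2:1499628-1506180), which encodes the rate-limiting enzyme of dopamine synthesis, had 52.7 and 59.9 CPM in PA, against 24.1 and 25.1 in IVF, a log2 fold change of 1.20 ± 0.14 (adjusted p = 3.13e-05). By staining at the same day, the study reports a higher yield of TH-positive cells in IVF than in PA. That is a measure of protein per cell and not of RNA in bulk. Of the 15 genes of dopamine synthesis, storage and breakdown, TH was the 1 that was higher, DBH and ALDH1A1 were lower and 12 were not called, and without any 1 of the 4 libraries only 1 remained lower. The next enzyme, DDC, had 43.9 and 37.0 CPM in PA, against 59.3 and 60.4 in IVF (log2 fold change -0.56 ± 0.27). The vesicular transporter SLC18A2 had 3.17 and 3.54 CPM in PA, against 3.56 and 4.87 in IVF. GCH1, which makes the cofactor of TH, had 4.31 and 3.72 CPM in PA, against 3.49 and 4.32 in IVF. The groups overlapped for GCH1. For DDC and SLC18A2 both PA libraries lay below both IVF libraries, and neither difference passed the test.

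Of 18 dopaminergic identity genes 4 were higher, 4 lower and 10 not called, with a median log2 fold change of -0.25. KCNJ6, the potassium channel GIRK2, had 79.5 and 89.8 CPM in PA, against 20.3 and 28.8 in IVF (log2 fold change 1.79 ± 0.23). DRD2, the dopamine autoreceptor, had 23.0 and 21.2 CPM in PA, against 9.45 and 10.2 in IVF. CHRNA6, a nicotinic receptor subunit, was also higher, with 21.4 and 25.8 CPM in PA, against 9.11 and 12.1 in IVF, and lost its call without PA replicate 2 (log2 fold change 1.02) or IVF replicate 1 (0.97). NR4A2, needed for dopaminergic maturation, had 63.5 and 58.1 CPM in PA, against 48.8 and 58.3 in IVF (log2 fold change 0.18 ± 0.19, adjusted p = 0.492). LMX1A, which acts early in dopaminergic progenitors, had 99.2 and 96.0 CPM in PA, against 87.6 and 87.0 in IVF (log2 fold change 0.16 ± 0.20). EN1, which keeps midbrain neurons alive, was low throughout, at 0.478 and 0.394 CPM in PA libraries and 1.23 and 1.26 CPM in IVF libraries, and was not called. With only the 4 libraries of day 28 in the fit EN1 was called lower (log2 fold change -1.49). HOX genes, which mark hindbrain and spinal cord, had no called member among 15 tested, and HOXA2 was called lower with only the 4 libraries of day 28 in the fit (-2.23).

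Transmitter genes differed by class. Glutamatergic genes were higher in PA in 4 of 6 cases, led by the vesicular transporter SLC17A6 with 190.4 and 201 CPM in PA, against 47.4 and 69.5 in IVF (log2 fold change 1.74 ± 0.19). Among GABAergic genes the transporter SLC6A11 had 51.0 and 56.8 CPM in PA, against 15.5 and 22.3 in IVF. GAD2, which makes GABA, had 31.1 and 31.1 CPM in PA, against 10.4 and 12.9 in IVF, and GAD1, the other enzyme, had 84.4 and 85.04 CPM in PA, against 36.8 and 45.7 in IVF. GAD1, GAD2 and the vesicular transporter gene SLC32A1 lost their calls without IVF replicate 1 (log2 fold changes of 0.89, 1.27 and 1.23). GAD1 also lost it without either PA library (1.04 and 1.03). Of 11 tested members 5 were higher, 1 without IVF replicate 1 and 3 without PA replicate 2, and 3 were lower. The factors that specify midbrain GABA neurons were lower: GATA2 had 0.279 and 0.153 CPM in PA, against 4.32 and 5.97 in IVF (log2 fold change -4.54 ± 0.52). GATA3 had 0.837 and 0.940 CPM in PA, against 8.75 and 11.2 in IVF (log2 fold change -3.49 ± 0.42).

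Genes of serotonin, noradrenaline and acetylcholine neurons were mostly lower. Of 13 tested members 7 were lower and 1, the intermediate filament gene PRPH, was higher, with a median log2 fold change of -1.29, and 4 were lower without PA replicate 2. The choline transporter SLC5A7 had 1.93 and 2.45 CPM in PA, against 26.4 and 44.8 in IVF (log2 fold change -4.02 ± 0.32, adjusted p = 7.31e-07). SLC18A3, which loads acetylcholine into vesicles, had 1.40 and 1.99 CPM in PA, against 5.51 and 9.17 in IVF. TPH2, the neuronal enzyme of serotonin synthesis, had 0.319 and 0.437 CPM in PA, against 4.12 and 6.81 in IVF (log2 fold change -3.85 ± 0.44). The alpha7 nicotinic receptor gene CHRNA7 (chr1:142803697-142937124) had no count in PA, against 2.81 and 3.59 CPM in IVF, at least 102-fold lower.

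Neuropeptide genes were more often higher than lower in PA. Of 25 tested precursors 11 were higher in PA and 3 lower, with a median log2 fold change of 1.12. Fewer were called higher whichever 1 of the 4 libraries was left out. TAC3 (492314), the precursor of neurokinin B in hypothalamic neurons, had 163 and 188 CPM in PA, against 15.4 and 20.9 in IVF, a log2 fold change of 3.27 ± 0.16 (adjusted p = 1.04e-08). TAC1, the substance P precursor, had 33.5 and 39.3 CPM in PA, against 3.19 and 3.69 in IVF (log2 fold change 3.40 ± 0.35). PDYN, the dynorphin precursor, had 34.9 and 33.0 CPM in PA, against 3.37 and 3.77 in IVF. PMCH, the precursor of melanin-concentrating hormone of the lateral hypothalamus, had 58.6 and 63.9 CPM in PA, against 7.51 and 17.6 in IVF, with a wide gap between the IVF replicates. GAL, SST and NPY had log2 fold changes of 3.70 ± 0.47, 2.78 ± 0.36 and 1.30 ± 0.33. HCRT, the precursor of the orexins, also a lateral hypothalamic peptide, ran against this with 2.69 and 3.76 CPM in PA, against 93.5 and 77.8 in IVF (log2 fold change -4.73 ± 0.41). POMC had 2.09 and 2.29 CPM in PA, against 2.63 and 1.77 in IVF and was not called, and AVP and OXT had no count in any of the 4 libraries.

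**Figure D3:**
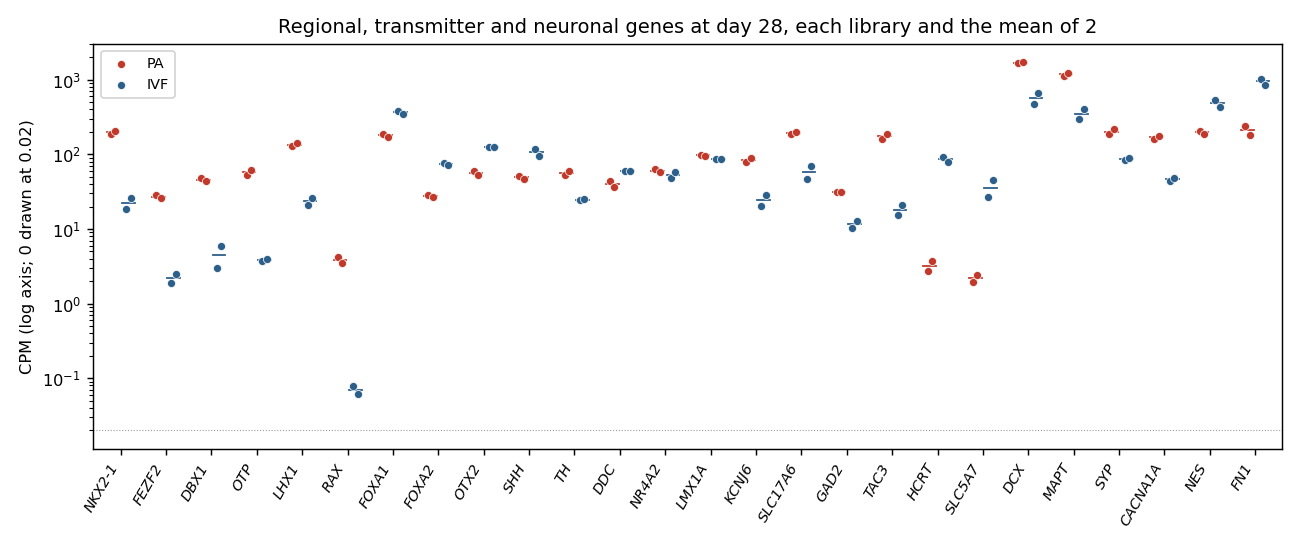
CPM of regional, transmitter and neuronal genes at day 28 on a log axis, with a point for each library, a bar for the mean of 2 and PA left of IVF within each gene. NKX2-1, OTP and TAC3 lie higher in PA, FOXA2, HCRT, SLC5A7 and FN1 lie lower, and DDC, NR4A2 and LMX1A lie close together.

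Genes of neurons in general were more often higher than lower in PA, and neurofilament genes were called in both directions. Among 17 tested pan-neuronal genes 7 were higher and 2 lower, with a median log2 fold change of 0.88, and without IVF replicate 1 the higher count fell to 3. DCX, a microtubule protein of young neurons, had 1695 and 1712 CPM in PA, against 471 and 674 in IVF (log2 fold change 1.57 ± 0.19). MAPT, the microtubule protein tau, had 1135 and 1228 CPM in PA, against 297 and 401 in IVF (log2 fold change 1.76 ± 0.22). RBFOX3, known as the antigen NeuN, had 27.4 and 29.4 CPM in PA, against 8.99 and 9.95 in IVF. NEFL, the light neurofilament chain, had 149 and 153 CPM in PA, against 325 and 475 in IVF (log2 fold change -1.41 ± 0.20). NEFM, the middle chain, had 126 and 134 CPM in PA, against 294 and 384 in IVF (log2 fold change -1.38 ± 0.19). NEFH, the heavy chain, was higher with 0.877 and 0.437 CPM in PA, against 0.0792 and 0 in IVF, a call at low level that was lost without PA replicate 1 or either IVF library. INA, another neuronal intermediate filament, was higher with 632 and 699 CPM in PA, against 229.7 and 337 in IVF and lost its call without IVF replicate 1 (0.98). MAP2 had 1945 and 1918 CPM in PA, against 933 and 1222 in IVF, which passed the adjusted p and not the 2-fold minimum.

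Proneural and neurogenic transcription factors were higher in 13 of 19 cases and lower in none, with a median log2 fold change of 1.57. NEUROG2, which starts neuronal differentiation, had 35.9 and 34.4 CPM in PA, against 9.57 and 13.2 in IVF (log2 fold change 1.63 ± 0.29). NEUROD1, acting after it, had 12.8 and 10.4 CPM in PA, against 2.06 and 3.04 in IVF. MYT1, a repressor of non-neuronal genes, had 129.8 and 134 CPM in PA, against 40.3 and 48.2 in IVF (log2 fold change 1.57 ± 0.13). INSM1 was among the 6 not called. Progenitor genes did not move together: of 16 members 3 were higher and 3 lower. SOX3, a factor of neural progenitors, had 10.5 and 8.37 CPM in PA, against 0.772 and 0.897 in IVF (log2 fold change 3.50 ± 0.26). NES, the intermediate filament nestin, had 209 and 190.4 CPM in PA, against 534 and 431 in IVF (log2 fold change -1.28 ± 0.15). Of 32 cell cycle genes only CCND1 was higher and CDKN1A lower. MKI67 had 134 and 124 CPM in PA, against 92.8 and 85.9 in IVF (log2 fold change 0.53 ± 0.26, adjusted p = 0.124).

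Synaptic and channel genes that were called were nearly all higher in PA. Of 26 synaptic vesicle release genes 15 were higher and none lower (1 lower without PA replicate 2), with a median log2 fold change of 1.20. RIMS1, a scaffold of the release site, had 148 and 156 CPM in PA, against 47.0 and 59.4 in IVF (log2 fold change 1.52 ± 0.11). SV2A, a vesicle glycoprotein, had 296 and 339 CPM in PA, against 81.9 and 115 in IVF (log2 fold change 1.69 ± 0.18). SYP, synaptophysin, had 186 and 216 CPM in PA, against 82.8 and 90.6 in IVF. SYT1 and SNAP25 had log2 fold changes of 0.95 ± 0.15 and 0.48 ± 0.15 and were not called. On the postsynaptic side 6 of 18 scaffold and adhesion genes were higher and none lower. SHANK1 had 123 and 131 CPM in PA, against 43.4 and 45.4 in IVF, and DLG4, the scaffold PSD-95, had a log2 fold change of 1.07 ± 0.11.

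Calcium channel subunits gave the highest share of any channel list, with 13 of 19 higher, none lower and a median log2 fold change of 1.49. CACNA1A, the P/Q-type pore of presynaptic terminals, had 161 and 177 CPM in PA, against 43.5 and 48.8 in IVF (log2 fold change 1.87 ± 0.11, adjusted p = 6.72e-08). CACNA1D, the L-type pore linked to pacemaking in dopaminergic neurons, had 25.02 and 29.3 CPM in PA, against 8.56 and 10.8 in IVF. CACNA1I, a T-type pore that opens near rest, had 59.1 and 65.3 CPM in PA, against 12.2 and 14.1 in IVF, and its relative CACNA1G had a log2 fold change of 1.63 ± 0.12. Of 11 sodium channel subunits 5 were higher and none lower, with SCN1A, a pore of action potentials, at 87.5 and 88.2 CPM in PA, against 24.6 and 31.2 in IVF. Of 55 potassium and HCN channel subunits 26 were higher and 4 lower, with a median of 1.05, and fewer were called higher whichever 1 library was left out. KCNA6, a voltage-gated pore, had 38.0 and 43.3 CPM in PA, against 1.82 and 1.22 in IVF (log2 fold change 4.74 ± 0.28). The calcium-activated channel KCNN1 had 34.7 and 38.0 CPM in PA, against 5.86 and 6.12 in IVF. The pacemaker channel HCN4 had 47.8 and 54.8 CPM in PA, against 13.3 and 20.5 in IVF. KCNA5 and KCNC4 were lower, with log2 fold changes of -1.69 ± 0.23 and -1.25 ± 0.19.

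Receptor subunits followed, with 12 of 24 GABA, glycine and nicotinic genes higher and only CHRNA7 lower. Fewer of these were called higher whichever 1 library was left out. GABRA3, the alpha3 subunit of young neurons, had 110.5 and 126 CPM in PA, against 21.5 and 30.7 in IVF (log2 fold change 2.18 ± 0.16). Of 20 glutamate receptor genes 6 were higher and none lower. The kainate subunit GRIK3 had 51.6 and 55.1 CPM in PA, against 8.40 and 8.89 in IVF (log2 fold change 2.63 ± 0.23). The NMDA subunit GRIN2B had 149 and 181 CPM in PA, against 36.4 and 50.5 in IVF, and the metabotropic receptor GRM5 had a log2 fold change of 2.16 ± 0.26. Axon guidance genes had 11 higher and 2 lower members of 46. ROBO3, a receptor that lets axons cross the midline, had 26.6 and 29.5 CPM in PA, against 2.60 and 3.57 in IVF (log2 fold change 3.19 ± 0.25). SLIT3, a repellent ligand, had 52.4 and 51.0 CPM in PA, against 198 and 176 in IVF (log2 fold change -1.85 ± 0.19). Of 24 cadherins and protocadherins 11 were higher and 2 lower, with 7 higher without IVF replicate 1. CDH4, a neuronal cadherin, had 92.7 and 105 CPM in PA, against 8.48 and 9.31 in IVF (log2 fold change 3.47 ± 0.16).

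**Figure D4:**
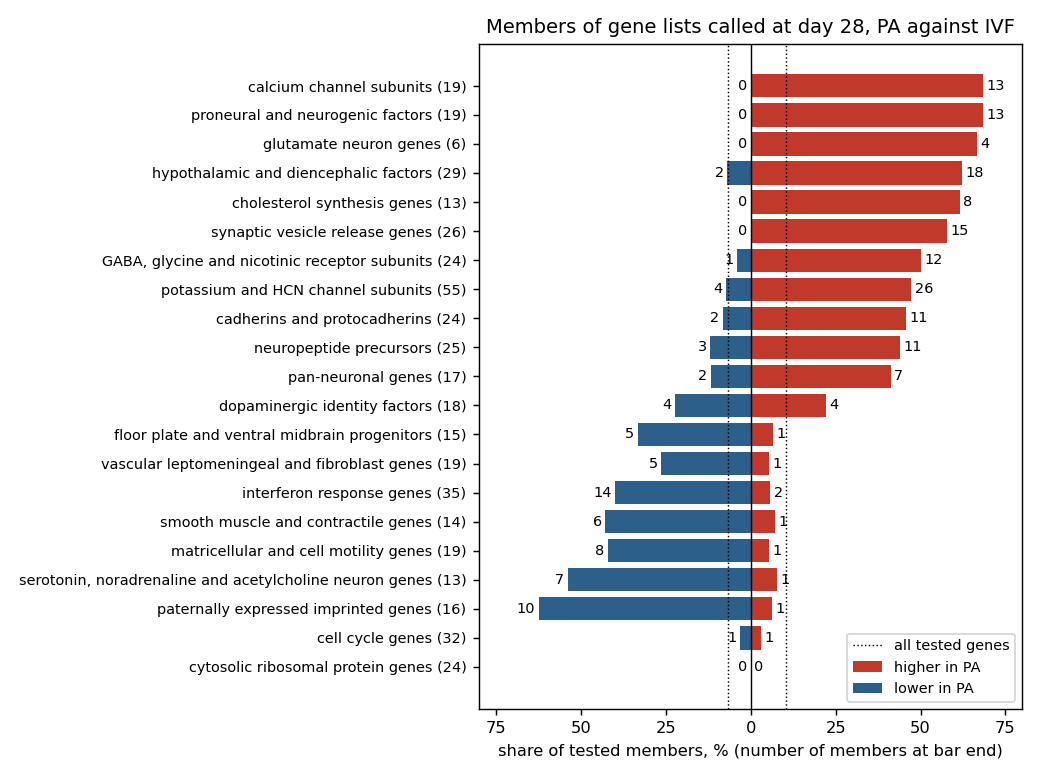
Share of the tested members of each gene list that were higher (right) or lower (left) in PA at day 28, with the number of members at the bar end, the number tested in brackets and dotted lines at 10.3% and 6.75%, the shares of all tested genes. Calcium channel, proneural and hypothalamic lists lie well right of the line, imprinted paternal, serotonin and interferon lists lie left, and ribosomal protein genes have no called member.

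Cholesterol synthesis genes that were called were all higher in PA. The pathway builds cholesterol from acetyl-CoA, and its genes are switched on together by the factor SREBP-2, encoded by SREBF2, when membrane sterol falls. Of 13 tested members 8 were higher in PA and none lower, with a median log2 fold change of 1.12, and 7 or 8 were higher without any 1 library. HMGCS1, the first committed enzyme, had 552 and 519 CPM in PA, against 179 and 222 in IVF (log2 fold change 1.42 ± 0.19). SQLE, squalene epoxidase, had 187 and 175 CPM in PA, against 69.0 and 81.9 in IVF (log2 fold change 1.26 ± 0.15). SREBF2 itself had 599 and 600.5 CPM in PA, against 265 and 260.2 in IVF (log2 fold change 1.19 ± 0.13). DHCR7, a late enzyme of the pathway, had a log2 fold change of 0.89 ± 0.12, under the 2-fold minimum. The PA replicates of these genes stood close together and above both IVF replicates.

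The promoters of SREBF2, SQLE and HMGCS1 are shown because the sterol response element, searched as TCACNCCAC on both strands in the 300 bases before the annotated start, was found in 3 of 13 promoters of the list and in 177 of 18490, 0.96%, of all tested genes. All 3 belonged to the 8 higher members. The motif was chosen after the values were seen. Sequences are 150 bases of RefSeq's Sscrofa11.1, written 5′ to 3′ along the gene, with the motif in capitals: SREBF2 at chr5:6784739-6784888, minus strand, SQLE at chr4:14700251-14700400, minus strand and HMGCS1 at chr16:27957364-27957513, minus strand.
SREBF2: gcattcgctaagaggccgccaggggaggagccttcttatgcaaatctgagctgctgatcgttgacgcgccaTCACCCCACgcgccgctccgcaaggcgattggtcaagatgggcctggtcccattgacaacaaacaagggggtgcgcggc
SQLE: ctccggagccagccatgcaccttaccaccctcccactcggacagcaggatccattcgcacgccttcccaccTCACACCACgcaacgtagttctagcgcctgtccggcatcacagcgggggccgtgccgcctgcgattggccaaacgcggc
HMGCS1: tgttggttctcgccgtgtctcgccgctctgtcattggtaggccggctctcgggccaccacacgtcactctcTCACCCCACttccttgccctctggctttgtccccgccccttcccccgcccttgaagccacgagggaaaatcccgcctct

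Interferon response genes were more often lower than higher in PA. Type I interferons bind a receptor that activates a complex that includes STAT2 and IRF9, and this switches on antiviral genes through the interferon-stimulated response element. Of 35 tested members 14 were lower and 2 higher, OAS1 and OAS2, with a median log2 fold change of -0.86, and 12 or 13 were lower without any 1 library, while the higher count was 1 without either IVF library. HERC5 (100518083, chr8:130532256-130591158), the ligase that attaches ISG15 to proteins, had 34.4 and 31.0 CPM in PA, against 142 and 142 in IVF, a log2 fold change of -2.12 ± 0.13 (adjusted p = 1.06e-07). Its neighbour HERC6 had 10.3 and 8.96 CPM in PA, against 29.2 and 30.9 in IVF (log2 fold change -1.64 ± 0.15). IFI44, of chromosome 6, had 16.7 and 16.2 CPM in PA, against 54.7 and 56.3 in IVF, and IFI44L, which lies next to it, had a log2 fold change of -1.57 ± 0.29. IFIT3, which binds viral RNA complexes, had 9.05 and 8.90 CPM in PA, against 22.3 and 22.6 in IVF (log2 fold change -1.32 ± 0.18). In each of these genes the PA libraries lay below the IVF libraries by more than their spread. OAS2, a sensor of double-stranded RNA, had 41.0 and 44.0 CPM in PA, against 19.5 and 20.7 in IVF. None of 8 tested genes of interferons and their receptors was called, and IFNB1 and IFNG had too few counts for a test.

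The response element, searched as GAAA, any 2 bases and GAAA on both strands in the same window, was present in 15 of 35 promoters of the list (42.86%) and in 620 of 18490 (3.35%) of all tested genes. It was as frequent in the 14 lower members (6, or 42.86%) as in the 19 members not called (8, or 42.11%). The promoters of the 3 lower genes HERC5, IFIT3 and IFI44L are shown with the match in capitals, as its reverse complement where it lies on the opposite strand: HERC5 at chr8:130591174-130591323, minus strand, IFIT3 at chr14:101214580-101214729, plus strand and IFI44L at chr6:134679213-134679362, minus strand.
HERC5: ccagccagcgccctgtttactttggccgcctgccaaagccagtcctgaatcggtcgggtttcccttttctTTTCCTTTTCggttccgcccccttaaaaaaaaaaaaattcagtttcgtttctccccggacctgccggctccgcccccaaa
IFIT3: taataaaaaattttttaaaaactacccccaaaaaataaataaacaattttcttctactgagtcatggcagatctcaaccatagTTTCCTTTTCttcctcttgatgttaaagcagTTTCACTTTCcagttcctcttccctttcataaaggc
IFI44L: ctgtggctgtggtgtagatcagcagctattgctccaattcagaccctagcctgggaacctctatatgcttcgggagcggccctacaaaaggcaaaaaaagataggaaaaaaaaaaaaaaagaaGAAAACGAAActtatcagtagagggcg

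Antigen presentation genes were called in both directions, and of 14 members 2 were higher and 5 lower. SLA-1, a class I heavy chain, had 13.2 and 15.0 CPM in PA, against 86.1 and 76.5 in IVF (log2 fold change -2.53 ± 0.28). SLA-2, another, had 23.9 and 26.4 CPM in PA, against 143 and 114 in IVF. B2M, the light chain, had 32.2 and 35.6 CPM in PA, against 85.9 and 72.2 in IVF. Reads of the SLA genes may be shared between near-identical copies, and B2M stood in the table more than once, so these values are uncertain. The peptide transporter gene TAP2 had 23.1 and 26.1 CPM in PA, against 11.7 and 11.05 in IVF, higher in PA (log2 fold change 1.11 ± 0.13), and TAP1 was also higher with a call that was lost without PA replicate 2. The other lower members were CIITA, the regulator of class II genes, with 0 and 0.0219 CPM in PA, against 1.15 and 1.16 in IVF, and SLA-DRA, a class II chain, with no count in PA, against 0.317 and 0.346 CPM in IVF. The heavy chain gene SLA-3 and the processing genes TAPBP, PSMB8, PSMB9 and PSMB10 were not called.

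Notch genes were examined because DAPT was present in both groups, and of 14 members 3 were higher and 2 lower, 1 of them without IVF replicate 1. HES5, a target of Notch in neural progenitors, had 2.63 and 2.58 CPM in PA, against 0.178 and 0.285 in IVF (log2 fold change 3.48 ± 0.41). HEY2, another target, had 2.31 and 1.92 CPM in PA, against 0.396 and 0.346 in IVF. MFNG, which modifies the receptors, had 8.51 and 8.26 CPM in PA, against 2.34 and 3.40 in IVF. NOTCH2, a receptor, was lower with 116 and 90.0 CPM in PA, against 291 and 254 in IVF. HES1 had 17.5 and 17.4 CPM in PA, against 31.4 and 28.8 in IVF (log2 fold change -0.79 ± 0.19) and was not called. All 3 higher members carried GTGGGAA, the RBPJ element, within the window, as did 5 of 14 of the list and 1166 of 18490 (6.31%) of all tested genes. The cyclic AMP element TGACGTCA, searched the same way, was found in 2 of 23 promoters of cyclic AMP and activity response genes (8.7%), in none of the 6 called members, and in 363 of 18490 (1.96%) of all tested genes. HES5 held the element on each strand, at the ends of the stretch shown (chr6:64410629-64410778, minus strand).
HES5: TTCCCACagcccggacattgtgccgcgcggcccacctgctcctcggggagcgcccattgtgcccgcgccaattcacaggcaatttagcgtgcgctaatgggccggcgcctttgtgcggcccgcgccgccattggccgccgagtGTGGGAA

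Matrix and mesenchymal genes were more often lower than higher in PA. THBS2, a matricellular protein, had 31.9 and 31.6 CPM in PA, against 335 and 261 in IVF (log2 fold change -3.23 ± 0.16, adjusted p = 1.3e-08). FN1, fibronectin, had 243 and 184 CPM in PA, against 1040 and 863 in IVF (log2 fold change -2.15 ± 0.22). DCN, a matrix proteoglycan, had 10.3 and 8.48 CPM in PA, against 116 and 101 in IVF. All 3 passed the test. CTGF, a secreted target of mechanical signalling, had 26.9 and 28.1 CPM in PA, against 218 and 180.3 in IVF. Of 19 matricellular genes 8 were lower and 1 higher (median log2 fold change -0.93), and of 19 fibroblast genes 5 were lower and 1 higher (median -0.76, or -0.49 with genes that had no count in a group set at their bound). The smooth muscle list had 6 of 14 lower, 3 without IVF replicate 1, with ACTA2 at 0.857 and 0.0656 CPM in PA, against 11.09 and 4.22 in IVF. The IVF replicates of ACTA2 lay far apart, and so did those of COL1A1, which had 10.2 and 8.85 CPM in PA, against 66.3 and 29.6 in IVF.

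These shifts moved with marker sets of other cells. The 5 fibroblast markers summed to 76.2 and 63.4 CPM in PA and 295 and 211 CPM in IVF, 3 of 5 lower, and the 4 epithelial markers, 2 of 4 lower, to 14.4 and 12.2 CPM in PA and 53.1 and 42.2 CPM in IVF. The 4 tested astrocyte markers, 1 of 4 lower, summed to 34.6 and 29.9 CPM in PA and 66.4 and 56.3 CPM in IVF. GJA1 made up most of the astrocyte sum and was not called (log2 fold change -0.91). Astrocyte genes as a list were called in both directions, with 4 higher and 3 lower of 20 tested and a median log2 fold change of -0.38. KRT8, the keratin that leads the epithelial list, had 12.2 and 10.3 CPM in PA, against 51.1 and 40.3 in IVF, and made up most of the epithelial sum. The other lower marker, KRT18, had 0.259 and 0.131 CPM in PA, against 0.495 and 0.387 in IVF. EPCAM and CDH1 had log2 fold changes of 0.78 and 0.25 and were not called. Of 15 tested epithelial genes 4 were lower and 1 higher, with a median log2 fold change of 0. The part of these cells in the differences of synaptic, channel, interferon, cholesterol and matrix genes was not tested. Nor was that of the higher sum of neuron markers given above.

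The PA and IVF lines were also sequenced at days 0, 16 and 45, and the difference at day 28 was set against each by counts of calls at that day. At day 0, 734 genes were higher in PA and 490 lower (3.96% and 2.64%). At day 16 these were 648 and 1035 (3.5% and 5.59%), and at day 45 they were 1542 and 1042 (8.32% and 5.62%). Of the genes higher at day 28, 257 were also higher at day 0 (13.43% of the day 28 list and 35.01% of the day 0 list), 285 at day 16 (14.89% and 43.98%) and 524 at day 45 (27.38% and 33.98%). Of the lower genes, 123 were also lower at day 0 (9.83% and 25.1%), 331 at day 16 (26.46% and 31.98%) and 343 at day 45 (27.42% and 32.92%). Day 28 calls in the opposite direction at day 16 numbered 171 of the higher and 47 of the lower genes. On all 4 days 83 genes were higher and 63 lower.

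Tests of the change in difference gave 1823 genes with a larger PA minus IVF difference at day 28 than at day 16 (9.84%) and 992 with a smaller one (5.35%). The difference is signed, so a larger one is shifted toward PA and is not always a wider gap between the lines. Against day 45 the counts were 1465 (7.91%) and 1458 (7.87%). Paternally expressed imprinted genes were low on every day, with median log2 fold changes of -8.01, -5.06, -5.16 and -5.44 at days 0, 16, 28 and 45. These medians are of fitted values, which include genes with no count in PA. NNAT had 0 and 0.146 CPM in PA, against 476 and 434 in IVF at day 16, and 0.0858 and 0.119 CPM in PA, against 833 and 688 in IVF at day 45. MAGEL2 changed with the day. It had no count in either PA library at day 0, against 110.5 and 90.9 CPM in IVF. Its log2 fold changes were -0.14 ± 0.14, -0.26 ± 0.14 and -1.95 ± 0.14 at days 16, 28 and 45. PA thus lay further below IVF at day 45 than at day 28, by 1.68 ± 0.19 (test of the change, adjusted p = 5.9e-05).

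Neuronal lists changed sign between days 16 and 28. Synaptic vesicle genes had medians of -0.64 at day 16, 1.20 at day 28 and 0.32 at day 45, and 20 of 26 members had a larger difference at day 28 than at day 16. Proneural factors had medians of -1.09, 1.57 and 0.01 on these days, and calcium channel subunits -0.24, 1.49 and 0.08. RIMS1 was at -0.93 ± 0.11 on day 16 and 1.52 ± 0.11 on day 28, a change of 2.45 ± 0.16 (adjusted p = 6.1e-07). Hypothalamic factors were already higher at day 16 (median 1.16, 13 higher and 7 lower) and lay at -0.34 at day 45, with 19 of 29 larger at day 28 than at day 45. For NKX2-1 this change was 3.49 ± 0.22 (adjusted p = 1.5e-06), and for OTP it was 4.18 ± 0.32 (adjusted p = 4.7e-06). TH was at 1.83 ± 0.15, 1.20 ± 0.14 and -0.68 ± 0.14 on days 16, 28 and 45, and FOXA2 at -2.56 ± 0.32, -1.43 ± 0.30 and -1.32 ± 0.30.

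The cholesterol list had a median far from 0 at day 28 alone, with medians of 0.08, -0.10, 1.12 and -0.02 at days 0, 16, 28 and 45, and 8 of 13 members had a larger difference at day 28 than at day 16. HMGCS1 changed by 1.73 ± 0.26 against day 16 (adjusted p = 0.00024) and by 1.26 ± 0.26 against day 45 (adjusted p = 0.0023). Interferon genes had medians of -1.004, -0.86 and 0.88 at days 16, 28 and 45, with 16 lower at day 16, 14 lower at day 28 and 12 higher at day 45. For HERC6 the difference at day 28 was smaller than that at day 45 by -2.82 ± 0.20 (adjusted p = 2e-06).

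**Figure D5:**
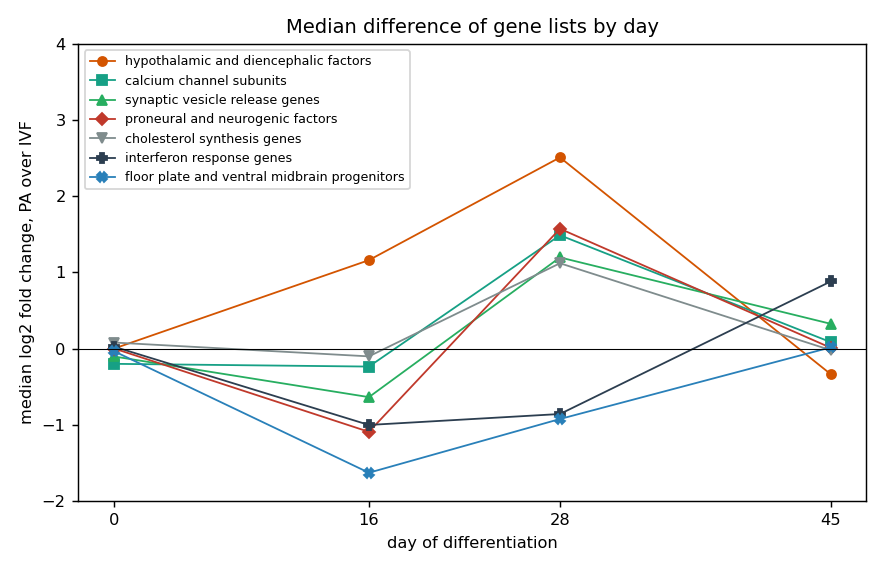
Median log2 fold change of PA over IVF (vertical axis) of 7 gene lists at days 0, 16, 28 and 45 of differentiation (horizontal axis). Synaptic, calcium channel, proneural and cholesterol lists peak at day 28, floor plate genes lie lowest at day 16, and interferon genes lie below 0 at days 16 and 28 and above it at day 45.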

How the data were processed

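The bulk RNA table of the study holds 16 libraries, 2 for each of 2 lines at 4 days, and was used for the 4 libraries of day 28 with the other 12 entering the fit. The authors trimmed reads with Trimmomatic 0.38, aligned them to Sscrofa11.1 with HISAT2 2.1.0 and deposited read counts per gene from StringTie 2.1.3b, per the processing notes; SAMtools 1.9 is named as well. The deposited FPKM and TPM columns hold the same libraries as normalized values and were not used. Columns of the authors' own comparisons were not used either. The strand setting of the counting is not given in the sources used here, so reads of overlapping antisense genes cannot be told apart.

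Counts were fitted with edgeR 4.0.16 in R 4.3.3 (8 group means, filterByExpr with a minimum of 10 counts, TMM, quasi-likelihood test, 8 residual degrees of freedom, Benjamini-Hochberg adjustment over 18528 genes). A permutation test of 2 against 2 libraries cannot go below p = 0.333, so single values were not tested that way. The fit was tested on simulated data first. Differences between days were interaction contrasts of the same fit. Replicates were compared by a chi-square test of their counts, with a median of 2.185 per gene in PA and 4.071 in IVF, against 0.4549 from counting alone, so they were separate libraries. Depth gave a floor of 3 counts over a group, 0.0313 CPM in PA and 0.0301 CPM in IVF, and floors and counting intervals (95%) cover counting error only.

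The members and the 64 gene lists were chosen with earlier results of these data known. Genes were named by these rules: up to 15 called genes each way by fold change, with a symbol, a mean of 5 CPM or more where higher and no overlap of libraries; up to 6 called members per list by adjusted p; all imprinted, dopaminergic, Y-linked and study-stained genes; up to 10 genes each way by the interaction with day 16; and further list members given with their values. For a symbol on several rows, the row with the higher PA mean was used. Promoters were the 300 bases before the annotated start in RefSeq's Sscrofa11.1, for 28208 of 28232 gene IDs found there. Alternatives were other scalings, other filters, no fold minimum, only day 28, replicate blocks, DESeq2 1.42.0 and leaving out each library. Figures were drawn with matplotlib 3.10.9 in Python 3.11.15. Results of some genes are not reported here.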

Additional observations from a re-analysis of the deposited data

Results flagged for a closer look

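In 20 genes the PA minus IVF difference at day 28 differed from that at day 16 by the interaction test and led the list by adjusted p. The values are differences of log2 fold changes, day 28 minus day 16, and a positive value means that PA gained on IVF.

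The 10 taken for a gain in PA come first. RELN, which encodes the secreted guidance protein reelin, changed most, by 5.78, with 49.6 and 55.8 CPM in PA, against 9.61 and 12.1 in IVF at day 28 and a log2 fold change of -3.51 ± 0.20 at day 16. LHX1 changed by 4.28, GNAT1 by 3.89, the calcium channel gene CACNA1D by 3.69, CRYBG3 by 3.60 and DACT1, a WNT antagonist, by 2.96. The neuronal repressor MYT1 changed by 2.75, the calcium-stimulated adenylate cyclase gene ADCY1 by 2.58, the adhesion gene L1CAM by 2.54 and the vesicle GTPase gene RAB3A by 2.14.

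The other genes lost ground in PA. KRT8 changed by -4.02, with a log2 fold change of 2.00 ± 0.17 at day 16 and -2.02 ± 0.18 at day 28. MYOF changed by -3.47, THBS2 by -3.18, the acid ceramidase gene ASAH1 by -3.14, FAM46C by -3.10 and the integrin gene ITGA2 by -2.89. FILIP1L changed by -2.52, the potassium chloride cotransporter gene SLC12A4 by -2.51, the plasminogen activator gene PLAT by -1.95 and PLA2G16 by -1.63. ASAH1 had 29.2 and 29.2 CPM in PA, against 216 and 233 in IVF at day 28, with replicates close in both groups.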

How the results depend on the processing

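Without the 2-fold minimum, 3672 genes were higher and 3747 lower in PA at day 28, so 49.49% of calls were higher, against 60.47% with it and 58.4% to 64.8% under the other settings. On the same terms the difference was larger for 2772 and smaller for 2528 genes against day 16, larger for 2812 and smaller for 2926 against day 45, and 1052, 1382 and 2710 calls of day 28 were shared in direction with days 0, 16 and 45. All other settings kept these overall counts within 1.5 times. Of 126 counts of called list members, 50 moved by more than that without the 2-fold minimum, 37 with the study's own criterion, 9 to 24 without 1 library and at most 5 under any other setting. DESeq2 called 2015 higher and 1131 lower, and 1583 and 861 with the study's own criterion. Leaving out 1 library gave 1477 to 1807 higher and 933 to 1238 lower, with the lone library assumed to vary like the other groups. Of 482 named genes none reversed direction, and of the 390 called, 296 kept the call under every alternative that gave them a value and 93 lost it without 1 library (DESeq2 with the study's own criterion and the filter of 1 CPM gave no value for some genes).

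Replicate numbers did not pair the samples: the deviations of PA and IVF correlated at 0.00789 over 14777 genes. The fit with a replicate block called 1872 higher and 1226 lower, and with a block within each day 1827 and 1194. With 2 libraries per group, differences of genes under about 1 CPM rest on few reads.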

Other observations

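Glial and lineage genes outside the comparisons above differed in both directions. OLIG2, a factor of oligodendrocyte and motor neuron progenitors, had 12.6 and 12.2 CPM in PA, against 1.03 and 1.49 in IVF (log2 fold change 3.30 ± 0.33). Its relative OLIG1 had 5.54 and 5.36 CPM in PA, against 0.356 and 0.469 in IVF (log2 fold change 3.72 ± 0.51). GPR17, a receptor of immature oligodendrocytes, was lower with 0.877 and 0.568 CPM in PA, against 5.43 and 3.81 in IVF, and PDGFRA, which defines their precursors, had 0.299 and 0.415 CPM in PA, against 0.574 and 0.387 in IVF. Among astrocyte genes ALDOC was higher with 81.4 and 64.8 CPM in PA, against 26.97 and 32.0 in IVF, and SPARCL1 was higher with 12.4 and 11.6 CPM in PA, against 2.81 and 4.08 in IVF. NFIA, which starts gliogenesis, was lower with 28.9 and 24.2 CPM in PA, against 76.5 and 75.3 in IVF. GFAP had 0.478 and 0.262 CPM in PA, against 0.317 and 0.734 in IVF and was not called.

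Signalling genes showed further differences. NTRK3, the receptor of neurotrophin-3, had 196 and 217 CPM in PA, against 35.1 and 53.5 in IVF (log2 fold change 2.22 ± 0.24), and its ligand gene NTF3 had 1.10 and 0.787 CPM in PA, against 3.07 and 2.53 in IVF. WNT8B, a forebrain ligand, had 59.7 and 48.3 CPM in PA, against 3.64 and 6.38 in IVF, while the WNT feedback gene AXIN2 had 80.9 and 81.4 CPM in PA, against 186 and 169 in IVF. ZNRF3, another, had 31.2 and 26.3 CPM in PA, against 69.5 and 64.4 in IVF. CYP26A1, which breaks down retinoic acid, and RBP4, which carries retinol, had log2 fold changes of -2.39 ± 0.22 and -2.01 ± 0.18. PPARGC1A, a regulator of mitochondrial genes, had 56.0 and 47.6 CPM in PA, against 198 and 199.9 in IVF.

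Of 13 mitochondrially encoded genes with a symbol 2 were called, both higher, and of 24 further mitochondrial rows with no symbol 10 were higher (41.67%) and none lower. These 10 rows were low, with no more than 8.0 CPM in any library. The row with the most reads among the 24 had 222 and 219 CPM in PA, against 277 and 293 in IVF, and was not called. ATP8 had 647 and 565 CPM in PA, against 87.7 and 136 in IVF (log2 fold change 2.44 ± 0.22) and ND1 had 1359 and 1320 CPM in PA, against 498 and 512 in IVF (log2 fold change 1.41 ± 0.13), with like differences on days 0, 16 and 45, while COX1 had 15410 and 15100 CPM in PA, against 15460 and 16430 in IVF (log2 fold change -0.06 ± 0.18). ATP8 overlaps ATP6, which had 3177 and 2936 CPM in PA, against 2076 and 2454 in IVF, so reads of the pair may be split by the counting. Mitochondrial rows took 4.13% and 3.91% of counts in PA and 3.58% and 3.84% in IVF. On the X chromosome 88 of 696 tested genes were higher and 26 lower (12.64% and 3.74%, against 10.3% and 6.75% of all tested genes). The Y-linked genes SRY, EIF1AY and AMELY had no count in any of the 4 libraries. The reference annotation placed 27 tested genes on chromosome Y, CD99 and DHRSX among them. Of these 2 were higher and 1 lower (7.41% and 3.7%), with a median log2 fold change of 0.54. Of the 14 genes listed as Y-linked 0 had enough reads to be tested. The placement comes from the annotation alone and does not tell which chromosome the reads came from.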
